A study of Mus musculus with 32 samples.

Results

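Replication-dependent histone genes are the gene copies in 4 chromosomal clusters, Hist1 to Hist4, that supply the bulk of the H1, H2A, H2B, H3 and H4 proteins. Members were the rows of the gene table whose name starts with Hist1, Hist2, Hist3 or Hist4 and that lay above 0 in at least 1 library. The rule used no other measured value. It found 71 of the 46517 gene rows, and none was removed by the condition on values. By name, 6 encode H1, 20 H2A, 19 H2B, 12 H3 and 13 H4, and 1 is named as a pseudogene. The Hist1 cluster on chromosome 13 holds 56, the Hist2 cluster holds 11, the Hist3 cluster on chromosome 11 holds 3, and Hist4 on chromosome 6 is a single gene. Of the Hist2 genes 10 are on chromosome 3, and Hist2h2bb.1 matched no annotated gene. GENCODE also lists Hist1h2aj and Hist1h2al as pseudogenes, although their names are those of H2A genes.

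The libraries are bulk RNA sequencing of 32 samples of Pmel CD8 T cells, 4 in each of 8 groups. Pmel is a transgenic T cell receptor that sees an antigen of melanocytes, and its carriers were sorted as CD8+ Thy1.1+ cells. All donors are given as C57BL/6 mice aged 16 weeks with melanoma-associated vitiligo, an autoimmune loss of pigment that accompanies an immune response to melanoma. That label also stands on the naive samples. The groups are naive cells from spleen, day 12 cells of the lymph node that drains the tumor, lymph node memory cells, and cells of spleen, skin, lung, liver and tumor. Surgery on the tumor preceded the memory lymph node, skin, liver and lung collections by 45 days. For tumor, spleen and naive cells the sources give no time. Nothing in the labels ties a library to an animal, so each p-value weighs a difference against the spread of these libraries alone, which may be technical.

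As background, DNA is packed around octamers of the core histones H2A, H2B, H3 and H4, and the linker histone H1 sits between these units. A cell that copies its DNA must make as much new histone protein, and these genes are transcribed mainly in S phase. Their mRNAs are unusual in that they lack introns and usually end in a conserved stem-loop instead of a poly(A) tail. The stem-loop-binding protein, encoded by Slbp, attaches there and governs processing, translation and decay of the message. Some copies can also be made with a poly(A) tail further downstream, mostly in cells that do not divide. Activated CD8 T cells divide fast in the draining lymph node, whereas naive T cells are quiescent.

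The stem-loop is shown first because it defines the family and because the sources used here do not say whether libraries were selected by poly(A). Each site below is read 5′ to 3′ from the GENCODE transcript on its sense strand, in DNA letters, with the stem-loop in capitals.
Hist1h2ap: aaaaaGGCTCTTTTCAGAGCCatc
Hist1h4d: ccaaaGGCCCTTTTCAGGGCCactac
Hist1h3c: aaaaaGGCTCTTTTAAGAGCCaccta
Hist2h2ac: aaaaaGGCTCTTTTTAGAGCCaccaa
Hist3h2a: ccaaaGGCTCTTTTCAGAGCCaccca
Of the 70 members matched to a GENCODE gene, 40 had 1 of these 16-base forms in an annotated transcript. The form of Hist1h2ap and Hist3h2a occurred in 26, that of Hist1h3c in 6, that of Hist2h2ac in 1, and that of Hist1h4d in 7, all of them H4 genes. The annotated end differed widely: the transcript of Hist1h2ap stops 3 bases after the stem-loop, that of Hist1h2ae 151, of Hist1h4d 770 and of Hist3h2a 1643 bases after it. The other 30 had none of these forms in their annotated transcripts.

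Sequences before the start site follow for the genes on which the results turn: 5 with the largest or most abundant day 12 signal or its divergent neighbour, and 2 that read lower on day 12 than in naive cells. They are the 150 bases upstream of the start in RefSeq (build GRCm38.p6), on each gene's strand. Capitals mark 3 promoter elements on either strand. The first is TATAAA, known as the core of the binding site of the general transcription machinery. The second is CCAAT, a frequent element of promoters active in dividing cells. The third is the octamer ATTTGCAT, a site of POU factors.
Hist1h2ap, chr13:21833476-21833625, minus strand: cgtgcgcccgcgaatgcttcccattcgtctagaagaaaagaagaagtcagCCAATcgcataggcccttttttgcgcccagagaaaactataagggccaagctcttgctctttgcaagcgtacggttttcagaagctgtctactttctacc
Hist1h2ae, chr13:23571221-23571370, minus strand: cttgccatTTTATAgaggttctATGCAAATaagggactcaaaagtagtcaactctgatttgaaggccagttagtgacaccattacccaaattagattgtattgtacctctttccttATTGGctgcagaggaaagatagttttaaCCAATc
Hist1h2bg, chr13:23571250-23571399, plus strand: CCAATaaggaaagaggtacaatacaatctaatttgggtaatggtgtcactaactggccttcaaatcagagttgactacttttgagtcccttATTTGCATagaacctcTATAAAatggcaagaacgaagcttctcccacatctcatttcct
Hist1h1b, chr13:21780626-21780775, minus strand: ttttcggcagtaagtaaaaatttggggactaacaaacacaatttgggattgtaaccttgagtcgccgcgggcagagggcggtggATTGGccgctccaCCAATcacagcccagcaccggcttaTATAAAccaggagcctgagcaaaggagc
Hist1h4d, chr13:23581418-23581567, plus strand: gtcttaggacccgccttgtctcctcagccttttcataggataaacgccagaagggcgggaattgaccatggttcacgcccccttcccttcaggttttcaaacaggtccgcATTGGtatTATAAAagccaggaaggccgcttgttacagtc
Hist2h2aa1, chr3:96245347-96245496, plus strand: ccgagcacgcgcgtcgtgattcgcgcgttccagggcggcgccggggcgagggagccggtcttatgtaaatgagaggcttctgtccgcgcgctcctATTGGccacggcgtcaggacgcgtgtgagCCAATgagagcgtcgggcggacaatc
Hist3h2a, chr11:58954535-58954684, plus strand: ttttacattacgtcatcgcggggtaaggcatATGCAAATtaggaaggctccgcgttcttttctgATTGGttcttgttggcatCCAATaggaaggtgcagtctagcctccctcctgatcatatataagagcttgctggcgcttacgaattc
Over the 250 bases before the start, 62 members matched a RefSeq promoter. TATAAA was found in 46.8% of them and in 12.4% of all 32851 promoters, CCAAT in 82.3% and 33.8%, and ATTTGCAT in 13 of the 62 and in 1.6% of all. CCAAT was present in each of the 6 H1, 18 H2A and 16 H2B promoters but in 25.0% of the 12 H4 promoters, and ATTTGCAT only in H2A (38.9%) and H2B (37.5%) promoters. None of the 3 motifs holds another, and a match is a description of the letters only. Hist3h2a and Hist2h2aa1, which were not among the genes that rose on day 12, carried CCAAT as Hist1h2ap did.

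Values are TPM, a share of each library's transcripts corrected for gene length, and errors of TPM are standard deviations (SD, n = 4 libraries). The values keep no read counts, so sequencing depth is unknown, and a library had between 10732 and 34211 genes above 0. In bulk samples, fewer cells that express a gene and less RNA per cell cannot be told apart. T cell identity genes, such as those of the CD3 and CD8 chains, summed to under 0.5 of the 32-library median in 6 libraries. These were replicate 4 of tumor, of skin and of spleen, and all liver replicates but the first. Myeloid genes summed to 3.32 ± 1.04 TPM in naive and 45.4 ± 8.72 on day 12, against 5667 ± 5040 in lung and 8314 ± 5418 in liver, and erythroid genes to 34559 ± 39492 in liver and 6541 ± 4152 in tumor. Unlike myeloid genes, B cell and erythroid genes were higher in naive than in day 12 libraries. B cell genes summed to 892 ± 64.3 TPM in naive and 159 ± 14.2 on day 12, and erythroid genes to 546 ± 276 and 1.31 ± 0.76. B cell genes were highest in lung (4357 ± 6492 TPM) and NK cell genes in liver (2146 ± 2416). The NK cell list also summed to 680 ± 105 TPM on day 12 against 8.39 ± 1.76 in naive cells. Whether the sorted T cells themselves expressed genes of that list was not tested. Hepatocyte genes were highest in liver (11295 ± 14057), keratinocyte genes in skin (1449 ± 1150), melanocyte and melanoma genes in tumor (499 ± 234) and lung epithelium genes in lung (1138 ± 1526). Stroma and endothelium genes were highest in tumor (242 ± 163) and skin (227 ± 195). The part of such cells in the histone values of any group was not tested. Histone copies are also alike in sequence: over stretches of 50 bases, the median member shared 48.15% of its transcript with another member, and 32 members shared over 50%. The sources used here do not say how reads that fit several copies were divided, so levels of near-identical copies are uncertain.

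**Figure D1:**
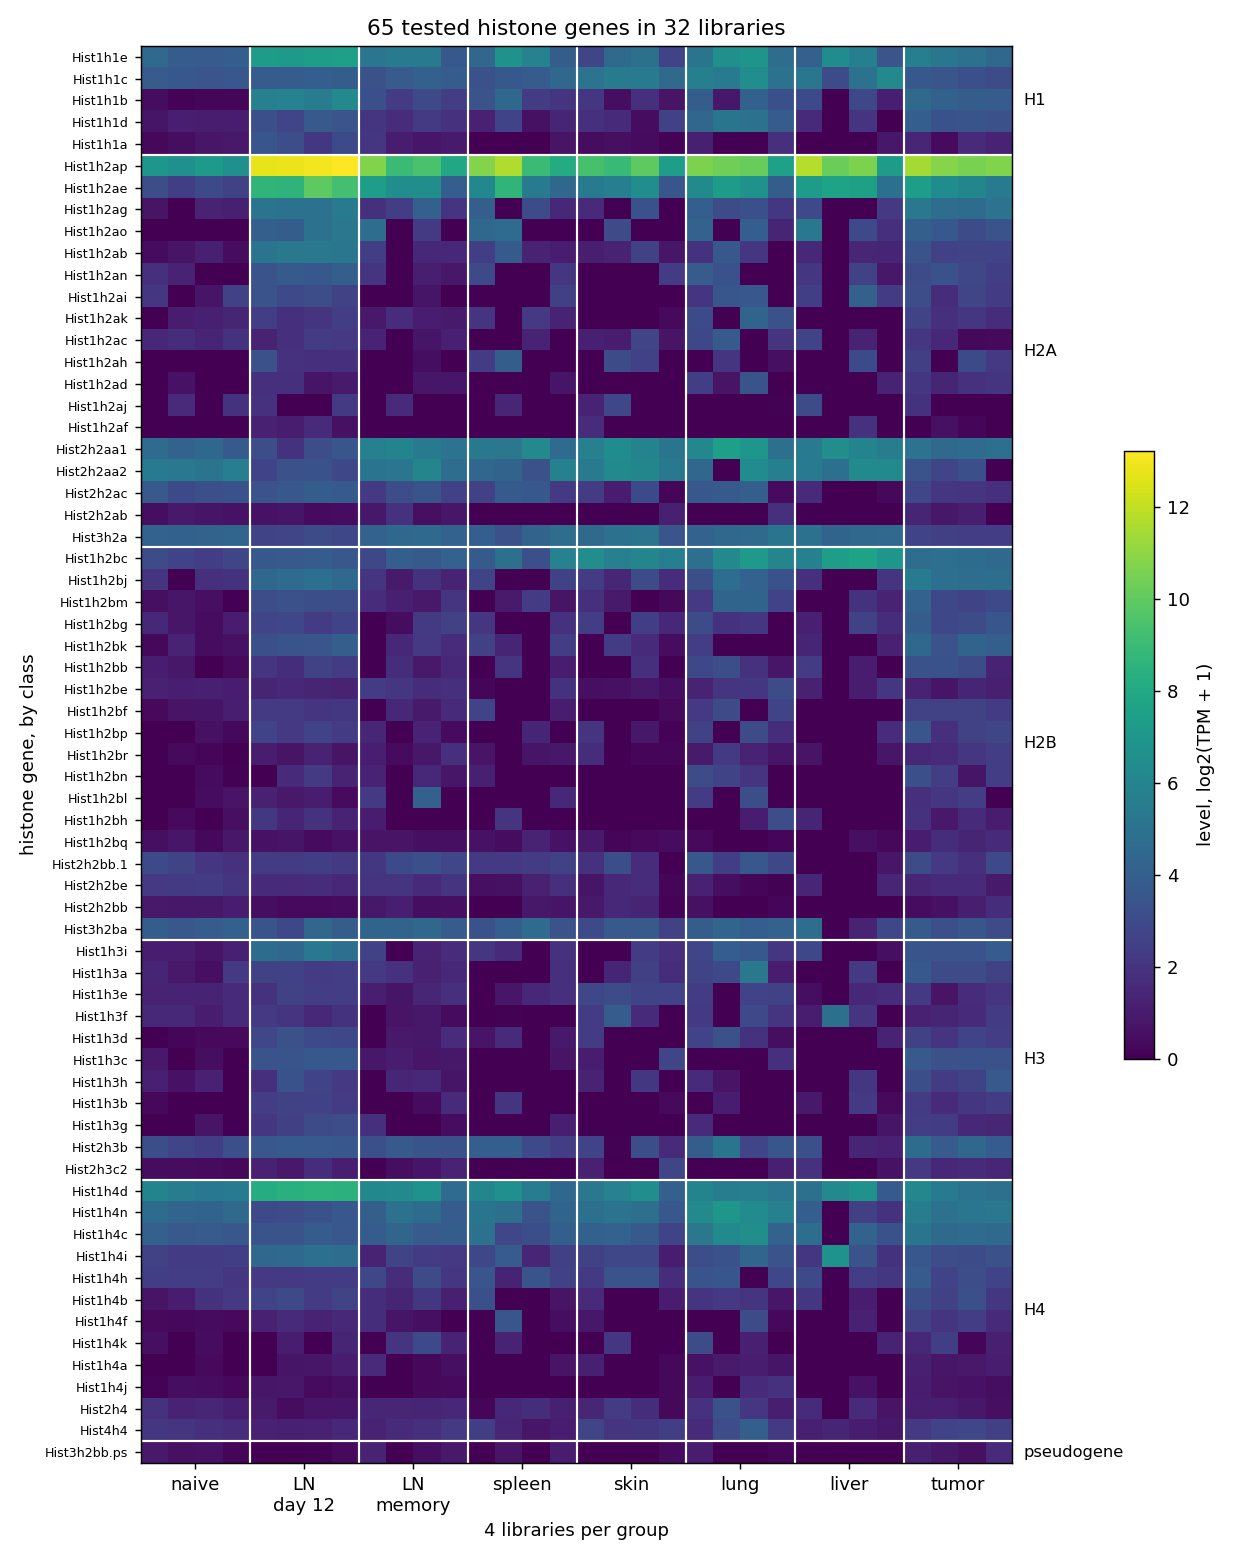
Level of each of the 65 tested histone genes, as log2(TPM + 1), in the 4 libraries of each group (LN, lymph node), with rows ordered by histone class. The day 12 columns are bright for Hist1h2ap, Hist1h2ae, Hist1h1e and Hist1h4d, and Hist2h2aa1 and Hist3h2a are darker there than in the naive columns.

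Histone RNA was scarcest in naive cells, most abundant in the day 12 lymph node, and on average between these levels in the other 6 groups. The 71 members together summed to 448, 355, 391 and 384 TPM in the naive libraries and to 8182, 8618, 10145 and 11253 TPM on day 12. The means were 394 ± 38.9 and 9550 ± 1414 TPM. In those 6 groups the mean sum was 1270 ± 727 TPM in lymph node memory, 1982 ± 1618 in spleen, 1054 ± 477 in skin, 1956 ± 840 in lung, 2278 ± 1397 in liver and 2571 ± 759 in tumor. The ranges of these groups overlap, apart from those of skin (up to 1599 TPM) and tumor (from 2042 TPM), and the lowest libraries of skin (436 TPM) and lymph node memory (523 TPM) lie near the naive range.

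A single H2A row accounted for much of this. Hist1h2ap (ENSMUSG00000094777, chr13:21833026-21833507, minus strand), a gene for canonical H2A, held the highest TPM of any member in any library, at 9566. It stood at 124, 98.8, 141 and 98.1 TPM in naive cells and at 6880, 7298, 8113 and 9566 TPM on day 12. Its share of all histone TPM was 29.3% ± 4.59 in naive cells, 83.4% ± 2.34 on day 12 and 75.5% ± 1.86 in tumor, and between 49.1% and 64.3% on average in the other groups. Without this row, the other 70 members summed to 279 ± 33.7 TPM in naive cells and 1585 ± 347 on day 12, so day 12 was higher without it too. Of the 50-base stretches of Hist1h2ap, 93.1% also occur in Hist1h2ao. Hist1h2ao was listed at 0 in all 4 naive libraries and at 24.3 ± 11.6 TPM on day 12, and the division of reads between both rows cannot be checked here.

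**Figure D2:**
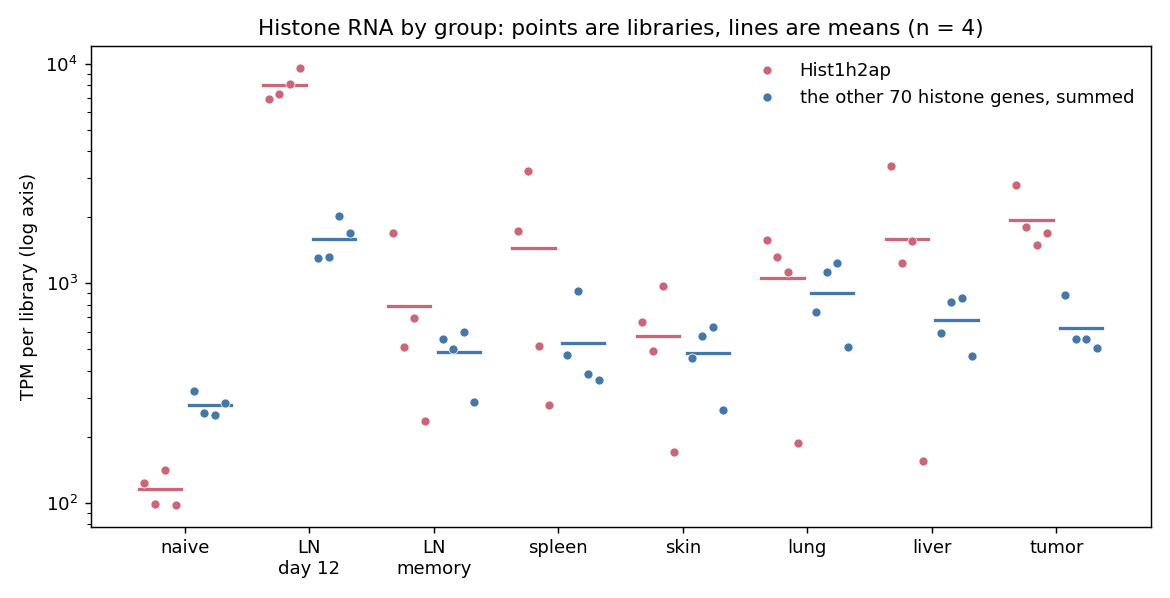
TPM per library, on a log axis, of Hist1h2ap and of the other 70 histone genes summed, in 8 groups of 4 libraries (LN, lymph node), with lines at the group means. Hist1h2ap lies between 98.1 and 141 TPM in naive cells and between 6880 and 9566 TPM on day 12, and the other 6 groups spread between these ranges.

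The classes differed in level and in ratio. The 6 H1 genes summed to 28.97 ± 5.07 TPM in naive cells and 245 ± 24.7 on day 12, and the H4 genes to 97.4 ± 14.2 and 397 ± 45.0. The H3 genes summed to 14.4 ± 3.30 and 85.3 ± 10.9 TPM. The H2B genes summed to 36.3 ± 4.15 and 98.3 ± 10.7 TPM, the smallest ratio of the classes. H2A without Hist1h2ap summed to 102 ± 9.89 and 760 ± 282 TPM. Nucleosomes hold the core histones in equal numbers, and the annotated sums were far from equal on day 12: 8724 ± 1347 TPM of H2A stood beside 98.3 of H2B and 85.3 of H3.

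Comparing day 12 lymph node with naive cells asks which copies differ between these 2 groups. The naive cells come from spleen and the day 12 cells from lymph node, so stage and tissue cannot be told apart here. The same holds for lymph node memory and tumor cells against naive cells. Changes are on the log2(TPM + 1) scale, with the standard error (SE) of a limma fit over all 8 groups, and p-values are adjusted by Benjamini-Hochberg over the 19738 genes with at least 1 TPM in 4 libraries. Of the 71 members 65 could be tested, and the remaining 6 reached at most 4.39 TPM in any library. Of the 65, 23 rose and 1 fell, while 5.95% of all genes tested rose and 5.14% fell (11.1% in all). The count depends on how the spread is estimated: with only the 2 groups compared 41 rose and 9 fell, and with weights per group 42 rose and 9 fell, so a member not called here may pass in those fits. The median change was 1.17 over the members and -0.19 over all genes tested. All 23 that rose lie in the Hist1 cluster, where 51 were tested. By class these were 4 of 5 tested H1 genes, 7 of 18 H2A, 4 of 18 H2B, 6 of 11 H3 and 2 of 12 H4 genes.

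The linker histones gave a clear split. Hist1h1b (encoding H1.5) was read at 0.37, 0.09, 0.18 and 0.19 TPM in naive cells and at 52.5, 58.1, 46.1 and 73.2 TPM on day 12. Every day 12 library exceeded every naive one by far, a log2 change of 5.58 ± 0.62 (adjusted p = 1.07e-07). Hist1h1b shares no 50-base stretch with another matched member. That comparison covered members only, so reads shared with other genes were not tested. Hist1h1e (H1.4) stood at 22.3, 13.4, 13.0 and 14.6 TPM and then at 157, 135, 164 and 175 TPM, and rose by 3.26 ± 0.65 (adjusted p = 0.00063). Hist1h1a (H1.1) and Hist1h1d (H1.3) rose from means of 0.56 ± 0.31 and 0.97 ± 0.21 TPM to 7.13 ± 2.90 and 9.04 ± 2.60 TPM. Hist1h1c (H1.2) was not called, with a change of 0.24 ± 0.43 (adjusted p = 0.85). It read 12.8, 11.6, 10.04 and 11.1 TPM in naive cells and 13.1, 13.2, 14.2 and 13.9 on day 12, slightly higher without overlap.

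Among core histones, the H2A copy Hist1h2ae had the largest change of any member. It lay at 7.79, 4.46, 6.88 and 4.98 TPM in naive cells and at 408, 391, 971 and 618 TPM on day 12. The groups are apart, although day 12 replicate 3 stands above the other three. The change was 6.34 ± 0.81 (adjusted p = 1.19e-06), against 6.10 ± 0.77 for Hist1h2ap (adjusted p = 9.84e-07). Of H4, Hist1h4d was the most abundant copy, with 61.4, 46.1, 39.4 and 43.3 TPM in naive cells and 286, 338, 377 and 356 TPM on day 12, and it rose by 2.82 ± 0.54 (adjusted p = 0.000407). Of H3, Hist1h3i lay between 0.69 and 1.22 TPM and then between 20.8 and 39.6 TPM, a rise of 3.84 ± 0.61 (adjusted p = 3.76e-05). Of H2B, Hist1h2bj lay between 0 and 3.17 TPM and then between 20.9 and 27.1 TPM, a rise of 3.16 ± 0.60 (adjusted p = 0.00034). Of the 24 calls, 21 held without each of the 8 libraries in turn. Hist1h2af, Hist1h3h and Hist1h4i lost the call without some of them, with adjusted p up to 0.12, 0.112 and 0.0697. These libraries were all but day 12 replicate 4 for Hist1h2af and all but day 12 replicate 1 for Hist1h4i. For Hist1h3h they were day 12 replicates 2 and 3 and naive replicates 2 and 4.

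**Figure D3:**
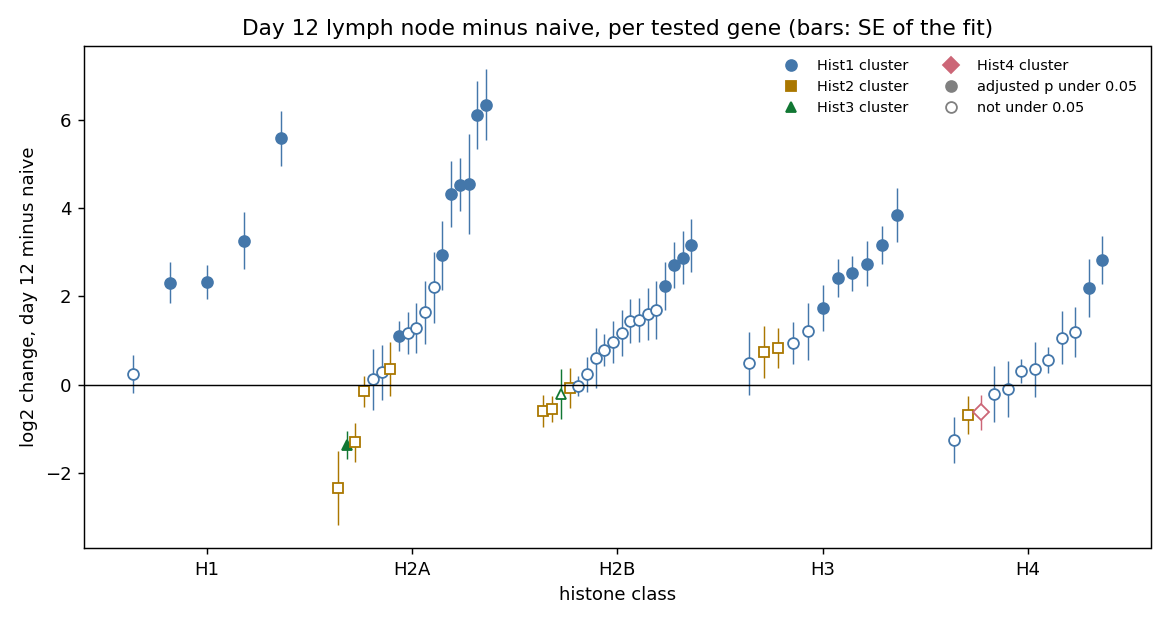
Change from naive to day 12 lymph node cells, on the log2(TPM + 1) scale with SE bars, of each tested histone gene (the pseudogene left out), by class, with marker shape for the cluster and filled markers for adjusted p under 0.05. Filled markers above 0 are all of the Hist1 cluster, and the filled marker below 0 is Hist3h2a, at -1.36.

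No gene outside Hist1 was called as rising. None of the 10 tested Hist2 genes passed the test in either direction on day 12, and the Hist2 sum was 86.5 ± 9.47 TPM in naive cells and 46.8 ± 4.61 on day 12. Hist2h3b (6.70 ± 1.88 and 11.5 ± 0.69 TPM, change 0.74) and Hist2h3c2 (0.32 ± 0.08 and 1.41 ± 0.60 TPM, change 0.84) did read higher on day 12 without overlap. Hist2h2bb, Hist2h2be and Hist2h4 read lower without overlap, as did Hist2h2aa1 and Hist2h2aa2 below. Hist3h2a, an H2A gene whose annotated transcript runs 1643 bases beyond its stem-loop, fell: it lay at 16.8, 16.4, 17.5 and 19.2 TPM in naive cells and at 5.66, 5.68, 7.14 and 6.34 TPM on day 12. These values do not overlap, and the change was -1.36 ± 0.32 (adjusted p = 0.00413). Hist2h2aa1 and Hist2h2aa2 are copies of 1 H2A gene, and all 50-base stretches of Hist2h2aa2 occur in Hist2h2aa1. Hist2h2aa2 stood at 40.9, 38.7, 33.5 and 49.8 TPM in naive cells and at 5.4, 8.55, 9.08 and 6.24 TPM on day 12. Hist2h2aa1 stood at 23.4, 16.6, 20.8 and 12.3 TPM and then at 7.72, 2.86, 7.58 and 10.7 TPM. Both are lower in all 4 day 12 libraries, but neither passed the threshold (adjusted p = 0.0524 for Hist2h2aa1 and 0.0749 for Hist2h2aa2).

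Copies that lie back to back on the chromosome were read as pairs. Of 14 divergent pairs with starts at most 400 bases apart, 13 join an H2A with an H2B gene. Both genes rose on day 12 in 2 of these pairs, 1 gene rose in 5, and neither rose in 6, while in 1 pair neither gene could be tested. Hist1h2ag and Hist1h2bj, 269 bases apart, rose by 4.32 and 3.16, and Hist1h2an and Hist1h2bp, 242 bases apart, by 2.93 and 2.23. Hist1h2ae and Hist1h2bg, whose upstream sequences above are largely the same DNA read from opposite strands, are 175 bases apart. Hist1h2ae rose by 6.34, while Hist1h2bg changed by 1.69 (adjusted p = 0.107). Hist1h2ap rose by 6.10 and its neighbour Hist1h2br, 235 bases away, changed by 0.79 (adjusted p = 0.188). The difference within a pair was not tested.

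Features of the annotated transcript gave this order in the same comparison. Of 19 tested members whose transcript ends within 60 bases after the stem-loop, 9 rose, with a median change of 1.60. Of 18 that run further, 6 rose and 1 fell, with a median of 0.90, and of 27 without an annotated stem-loop 8 rose, with a median of 0.97. A poly(A) signal lay in the last 50 bases of 15 tested members, of which 3 rose and 1 fell (median 0.24), and was absent in 49, of which 20 rose and none fell (median 1.44). Members that share over 50% of their sequence with another rose in 12 of 30 cases and the others in 11 of 34. These features were not tested against each other.

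Genes that work with histones were read from lists of companions. DNA replication genes rose on day 12 in 27 of 29 cases, with a median change of 3.03, and all 17 mitosis genes rose, with a median of 5.98. Rrm2, a subunit of the enzyme that makes deoxyribonucleotides, went from 6.01 ± 1.10 to 670 ± 74.1 TPM, and Pcna, the sliding clamp of the polymerases, from 119 ± 8.89 to 548 ± 27.1 TPM. The proliferation marker Mki67 rose by 4.84 ± 0.44 (adjusted p = 3.2e-09). Of 17 genes for histone mRNA processing only Slbp passed the test: it read 122, 113, 123 and 123 TPM in naive cells and 514, 523, 491 and 440 TPM on day 12, a rise of 2.02 ± 0.39 (adjusted p = 0.000457). Npat, the cyclin E-CDK2 substrate that activates histone transcription, read 7.52 ± 0.72 and 8.90 ± 1.87 TPM (adjusted p = 0.934). Of 20 histone chaperones 4 rose: Asf1b, by 4.58, and Chaf1a, by 4.49, with Chaf1b, by 2.62, and Mms22l, by 2.40. Asf1b hands H3 and H4 to the CAF-1 complex, which Chaf1a and Chaf1b belong to and which loads them on new DNA, and the Mms22l call was lost with a pseudocount of 0.1 (adjusted p = 0.0865).

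Histone variants listed as replication-independent and other RNAs without a tail served as further comparisons. Of 10 tested replication-independent variants 5 rose, among them Cenpa, the centromeric H3, by 3.74, H1f0 by 3.50, H2afz by 3.09 and H2afx by 2.89. H2afz reached 3087 ± 180 TPM on day 12 from 367 ± 68.9. H3f3a and H3f3b, which encode H3.3, read 1666 ± 110 and 1464 ± 56.3 TPM on day 12 and 1723 ± 157 and 1231 ± 123 in naive cells, and neither passed the test. Of 10 tested other RNAs without a poly(A) tail, Rpph1, the RNA of RNase P, rose by 3.84, and Scarna2 and Rnu11 fell, by 3.83 and 3.59 on the log2 scale. Their list summed to 147 ± 21.4 TPM in naive cells and 121 ± 26.0 on day 12, with overlapping values.

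In lymph node memory cells a part of the Hist1 genes was lower than on day 12. Of 65 members 20 fell and 2 rose, where 2.99% of all genes tested fell and 4.42% rose (7.41% in all), and the medians were -1.05 and 0.26. All 20 that fell are among the 51 tested Hist1 genes. With only the 2 groups compared 34 fell and 6 rose, and with weights per group 37 fell and 7 rose. Under quantile normalization 27 members fell and 2 rose, and over all genes 973 fell and 584 rose in place of 590 and 873. Hist1h2ap read 1694, 514, 692 and 236 TPM in the 4 memory libraries, below every day 12 library but widely spread, and fell by 3.68 ± 0.77 on the log2 scale (adjusted p = 0.00225). Hist1h2ab, another H2A copy, read 4.56, 0, 1.91 and 1.90 TPM against 33.1, 38.0, 37.9 and 35.3 TPM on day 12 and fell by 3.82 ± 0.60 (adjusted p = 0.000119). Hist1h1b read 8.52, 3.86, 6.67 and 4.24 TPM and fell by 3.13 ± 0.62 (adjusted p = 0.00134). The 2 that rose were Hist2h2aa1, at 52.6, 61.1, 42.0 and 31.4 TPM (2.60 ± 0.44, adjusted p = 0.000219), and Hist3h2a, at 16.8, 20.1, 22.2 and 16.9 TPM (1.47 ± 0.32, adjusted p = 0.00378).

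Calls in this comparison were of mixed firmness. Of the 22, 14 held without each of the 8 libraries in turn, among them the 5 genes just given. Hist1h1e, which read 35.8, 44.1, 43.6 and 11.6 TPM, lost its call without day 12 replicates 1, 3 or 4 or memory replicate 4 (adjusted p up to 0.0956). Hist1h2ae lost it without day 12 replicate 3 or memory replicate 4 (adjusted p up to 0.0861). Hist1h2bk lost it without day 12 replicate 4 or memory replicate 1, and Hist1h4i without day 12 replicate 3 or memory replicate 1, with adjusted p up to 0.0995 and 0.0739. Without 7 of the 8 libraries it was lost for Hist1h2af (all but day 12 replicate 4), Hist1h2ag (all but memory replicate 3), Hist1h2an (all but memory replicate 1) and Hist1h2bm (all but memory replicate 4). The companions fell with them: 22 of 29 DNA replication genes and all 17 mitosis genes were lower, and Slbp, at 216 ± 39.8 TPM, missed the threshold (adjusted p = 0.0594).

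Memory cells of the lymph node were also set against naive cells. Here 2 of 65 members rose and none fell, where 4.61% of all genes rose and 1.9% fell (6.52% in all), so the share of members called is near the background. With only the 2 groups compared 6 rose and 1 fell, with weights per group 11 rose, and under quantile normalization 816 of all genes rose and 594 fell in place of 910 and 376. The 2 members that rose in the fit over all 8 groups were Hist1h1b, at 5.82 ± 2.19 TPM against 0.21 ± 0.12 (2.45 ± 0.62, adjusted p = 0.0115), and Hist1h2ae, at 161, 87.6, 91.3 and 14.5 TPM against 4.46 to 7.79 (3.29 ± 0.81, adjusted p = 0.00873). Without memory replicate 1, the library with the most histone RNA of its group, both missed the threshold, with adjusted p of 0.0503 and 0.0527. Of the companions 12 of 17 mitosis genes and 4 of 29 DNA replication genes were higher than in naive cells.

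Tumor cells were compared with naive cells and with day 12 cells. Against naive cells 27 of 65 members rose and 2 fell, where 7.32% of all genes rose and 8.02% fell (15.3% in all), with medians of 1.18 and -0.06. With only the 2 groups compared 40 rose and 4 fell, and with weights per group 42 and 4. The 27 are again all Hist1 genes, and include 11 of 18 H2B genes and 6 of 11 H3 genes. Hist1h2ap read 2808, 1795, 1486 and 1686 TPM in tumor and rose over naive cells by 4.04 ± 0.77 (adjusted p = 0.000336). Hist1h2ag, an H2A copy, read 38.8, 25.2, 24.8 and 31.4 TPM in tumor and between 0 and 1.53 TPM in naive cells, a rise of 4.13 ± 0.75 (adjusted p = 0.000198). Hist1h3c, an H3 copy, read 12.1, 8.86, 9.22 and 8.55 TPM against 0.87, 0, 0.39 and 0 TPM (3.06 ± 0.43, adjusted p = 6.5e-06). Hist3h2a fell by 1.72 ± 0.32 (adjusted p = 0.000299), with 5.42, 4.65, 4.20 and 4.24 TPM in tumor. Hist2h2aa2 fell by 3.01 ± 0.84 (adjusted p = 0.0137), a call that was lost without tumor replicate 4, where it was listed at 0 (adjusted p = 0.0924). Its near-identical copy Hist2h2aa1 read 18.3 ± 4.90 TPM in naive cells and 26.5 ± 3.91 in tumor (0.54 ± 0.44, adjusted p = 0.452). The division of reads between these 2 copies cannot be checked here, so the fall of Hist2h2aa2 alone is uncertain. Of the 29 calls 23 held without each library in turn. The others were Hist1h2bf (lost without naive replicate 1), Hist1h2bq (without naive replicate 3 or tumor replicate 2), and Hist1h2ao, Hist1h4a and Hist1h4f, each lost without 7 of the 8 libraries (all but tumor replicate 3, naive replicate 3 and tumor replicate 4 in turn).

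Against day 12, tumor cells had less of some classes and not of others. H2A genes, the most abundant class, summed to 2146 ± 664 TPM in tumor and 8724 ± 1347 on day 12. Within H2A, Hist1h2ap read lower in tumor without overlap (1944 ± 590 against 7964 ± 1184 TPM), but the change of -2.07 ± 0.77 missed the threshold (adjusted p = 0.101). H1 genes summed to 72.0 ± 21.4 TPM in tumor and 245 on day 12, and H4 genes to 142 ± 36.3 and 397. H2B genes summed to 138 ± 30.4 TPM in tumor, above the 98.3 of day 12, and H3 genes to 70.8 ± 13.8 TPM beside 85.3. In the test 5 members fell and 5 rose, where 2.42% of all genes fell and 4.55% rose (6.97% in all), and the members' median change was -0.01. With only the 2 groups compared 14 fell and 12 rose, and with weights per group 14 fell and 11 rose. Under quantile normalization 766 of all genes fell and 714 rose in place of 477 and 899. Hist1h4d fell by 3.03 ± 0.54 (adjusted p = 0.000509), with 69.4, 41.4, 32.3 and 28.98 TPM in tumor, values that overlap those of naive cells. Hist1h2ab (6.4 ± 2.4 TPM against 36.1 ± 2.36) fell by 2.37 ± 0.60 (adjusted p = 0.0136), and Hist1h1a by 1.78 ± 0.38 (adjusted p = 0.00344). Hist1h2ae and Hist1h1e also fell, by 2.79 ± 0.81 and 2.23 ± 0.65. Hist1h4n, an H4 copy, rose by 2.05 ± 0.52 (adjusted p = 0.0135), at 48.0, 31.1, 35.5 and 37.1 TPM against 6.60 to 11.0 on day 12. Hist2h2aa1, Hist4h4, Hist1h2bq and the pseudogene Hist3h2bb-ps rose by 1.84, 1.26, 0.83 and 0.96. Hist1h2bq and Hist1h1a are named because the count is small, after their values were seen.

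Only 4 of those 10 calls held without each library in turn: Hist1h4d, Hist1h2ab, Hist1h1a and Hist1h4n. Those of Hist1h1e, Hist1h2ae and Hist4h4 were lost without any library but tumor replicate 1, with adjusted p up to 0.127, 0.124 and 0.139. The pseudogene lost its call without any library but tumor replicate 3 (adjusted p up to 0.18). Hist1h2bq lost it without day 12 replicates 1, 3 or 4 or tumor replicates 2, 3 or 4 (up to 0.09), and Hist2h2aa1 without day 12 replicate 2 (0.0541). With a pseudocount of 0.1 the calls were 4: Hist1h1e, Hist1h2ae, Hist1h4d and Hist2h2aa1. Under quantile normalization 2 rose and 5 fell in place of 5 and 5. In the same comparison Mki67 fell by 2.10 ± 0.44 (adjusted p = 0.00258) and Pcna by 1.54 ± 0.41 (adjusted p = 0.0168), the latter not without tumor replicate 4 (adjusted p = 0.0633).

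Spleen, skin, lung and liver cells were each compared with day 12, and share those day 12 libraries. In spleen 22 members fell and 2 rose (4.49% and 3.68% of all genes, 8.18% together), in skin 31 fell and 5 rose (9.31% and 8.27%, together 17.6%). In lung 12 fell and 8 rose (4.86% and 4.25%, together 9.11%), and in liver 29 fell and 4 rose (21.7% and 5.68%, together 27.3%). In liver, where so many of all genes fell, the count of members that fell is thus to be read against a high background. Under quantile normalization the background of all genes became 1388 lower and 656 higher in spleen (in place of 887 and 727), 1563 and 717 in lung (960 and 839) and 3106 and 1821 in liver (4276 and 1122). Weights per group gave 18 lower and 3 higher members in liver. Members' median changes were -1.2, -1.18, -0.44 and -1.33, against 0.14, 0.08, 0.19 and -0.29 over all genes. All members that fell in spleen and lung are Hist1 genes, whereas Hist2h2ac and Hist2h3b also fell in skin and liver, and Hist2h2bb.1 in liver. In skin, the call of Hist2h2ac was lost without skin replicate 2 or 4 (adjusted p up to 0.095), and that of Hist2h3b without any day 12 library or skin replicate 2 or 4 (up to 0.164).

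Hist1h2ap shows how uneven these groups were. It read 1729, 3257, 517 and 280 TPM in spleen, 663, 491, 967 and 171 TPM in skin, 1581, 1316, 1127 and 187 TPM in lung and 3430, 1241, 1553 and 155 TPM in liver. Each value lies below the lowest day 12 library, and the libraries of each tissue spread widely, with replicate 4 lowest in all of them. It fell by 3.05 ± 0.77 in spleen (adjusted p = 0.0107), 4.03 ± 0.77 in skin (0.000337), 3.28 ± 0.77 in lung (0.00536) and 2.97 ± 0.77 in liver (0.00446). With the 6 libraries poor in T cell genes left out, liver replicate 1 stands alone and is assumed to vary like the other groups. The liver change was then -1.2 (adjusted p = 0.552) and 17 liver members were called in place of 33, which describes that 1 library. Spleen replicate 4 and skin replicate 4 are among those 6 libraries, and lung replicate 4 is not.

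**Figure D4:**
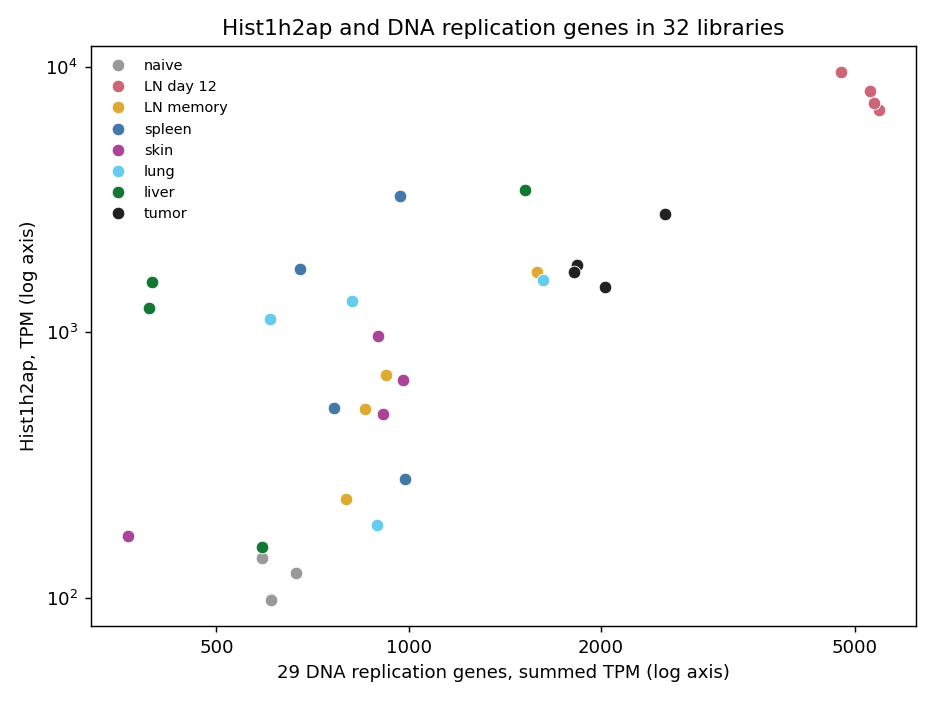
Hist1h2ap against the summed TPM of 29 DNA replication genes in each of 32 libraries, both on log axes, colored by group. The 4 day 12 libraries lie apart at the upper right, and lung replicate 4 and spleen replicate 2 hold like sums of replication genes (891 and 969 TPM) with 187 and 3257 TPM of Hist1h2ap.

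Tissue libraries with like sums of replication genes differed in histone RNA. In spleen, replicate 2 held 3257 TPM of Hist1h2ap with 969 TPM of DNA replication genes and 221 TPM of mitosis genes. Replicate 4 held 280 TPM of Hist1h2ap with 988 and 362 TPM of those lists. In lung, replicate 4 held 187 TPM of Hist1h2ap and 891 TPM of replication genes, against 1127 and 606 TPM in replicate 3. Liver replicates 2 and 3 held 1241 and 1553 TPM of Hist1h2ap beside 393 and 396 TPM of replication genes, the lowest sums apart from skin replicate 4. On day 12, replicate 4 had the most Hist1h2ap of its group and, at 4753 TPM, the least replication RNA. Other RNAs without a tail were also uneven. In order of replicate, their list summed to 110, 1870, 672 and 135 TPM in liver. It summed to 240, 223, 160 and 61.6 TPM in spleen and to 130, 360, 252 and 77.8 TPM in lung. Liver replicate 1, with the lowest of these liver sums, held the most Hist1h2ap of its group. Liver replicates 2, 3 and 4 and spleen replicate 4 are among the 6 libraries poor in T cell genes. The part of RNA selection, RNA quality or T cell content in these differences was not tested.

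Hist1h1b, which shares no sequence with other members, was low throughout tissue. It read 9.34, 21.03, 4.04 and 2.91 TPM in spleen, 3.21, 0.40, 2.49 and 0.62 TPM in skin, 13.9, 0.82, 16.2 and 8.38 TPM in lung and 6.72, 0, 6.18 and 1.16 TPM in liver. All are under the lowest day 12 value of 46.1 TPM. The naive mean of 0.21 ± 0.12 TPM was lower than the mean of each of these tissues. Differences of these tissues from naive cells were not tested. Against day 12, Hist1h1b fell by 2.82 ± 0.62 in spleen (adjusted p = 0.00357), 4.59 ± 0.62 in skin (4.2e-06), 2.83 ± 0.62 in lung (0.00303) and 4.12 ± 0.62 in liver (1.68e-05). The spleen call was lost with a pseudocount of 0.1 (adjusted p = 0.0556).

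A small set of members went the other way, being higher in other groups than on day 12. Hist2h2aa1 was called higher than on day 12 in lymph node memory, spleen, skin, lung, liver and tumor. It read 39.4, 36.2, 74.2 and 23.6 TPM in spleen, 52.8, 86.8, 58.4 and 34.4 in skin, 72.4, 173, 123 and 28.7 in lung, and 42.8, 92.5, 60.4 and 48.4 in liver. No value reaches down to the day 12 range of 2.86 to 10.7 TPM. The rise was 2.42 ± 0.44 in spleen (adjusted p = 0.000458), 2.88 ± 0.44 in skin (2.11e-05), 3.44 ± 0.44 in lung (5.75e-06) and 2.96 ± 0.44 in liver (1.42e-05). All 50-base stretches of Hist2h2aa2 occur in Hist2h2aa1, and the division of reads between both cannot be checked, so these levels are uncertain. Hist2h2aa2 was called higher in skin and liver. It was not called in lymph node memory, spleen (1.38, adjusted p = 0.34), lung (1.10, 0.434) or tumor (-0.67, 0.701). Hist3h2a rose in lymph node memory, spleen, skin, lung and liver and not in tumor, where its mean of 4.63 ± 0.57 TPM was the lowest of any group. It read 16.6 ± 7.16 TPM in spleen (1.2 ± 0.32, adjusted p = 0.0177), 23.8 ± 9.99 in skin (1.67 ± 0.32, 0.000409), 23.8 ± 7.27 in lung (1.75 ± 0.32, 0.000516) and 22.7 ± 4.63 in liver (1.70 ± 0.32, 0.000273). The spleen call of Hist3h2a was lost without day 12 replicate 1 or 2 (adjusted p = 0.0545 and 0.0534) or spleen replicate 4 (0.0669).

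Hist1h2bc, an H2B gene, was higher in skin, lung and liver than on day 12. It read 7.38, 5.28, 4.30 and 5.89 TPM in naive cells, 11.7, 12.1, 13.3 and 11.1 on day 12, and 6.21, 14.6, 12.4 and 16.7 in lymph node memory. Spleen, at 12.3, 28.0, 8.44 and 57.8 TPM, was uneven. It then read 87.8, 52.7, 62.9 and 51.6 TPM in skin, 27.3, 72.8, 138 and 62.7 in lung, 55.1, 167, 202 and 123 in liver, and 25.2, 27.4, 24.2 and 21.9 in tumor. The rise over day 12 was 2.28 ± 0.47 in skin (adjusted p = 0.000773), 2.33 ± 0.47 in lung (0.0012) and 3.25 ± 0.47 in liver (9.84e-06). In spleen and tumor it did not pass the test (adjusted p = 0.369 and 0.223). Libraries of these tissues also held RNA of other cells. In order of replicate, myeloid genes summed to 1551, 8196, 8701 and 14806 TPM in liver. They summed to 1342, 1436, 11165 and 8726 TPM in lung and to 34.0, 333, 4258 and 49.7 TPM in skin. Keratinocyte genes summed to 1533, 1181, 149 and 2932 TPM in skin. The part of such cells in the level of Hist1h2bc was not tested. Hist1h1c, the tested H1 gene that was not called on day 12 against naive cells, read 32.3, 43.4, 44.3 and 23.2 TPM in skin and 50.4, 41.5, 88.9 and 29.4 in lung. It rose by 1.76 ± 0.43 in lung (adjusted p = 0.00805) and by 1.29 ± 0.43 in skin (0.0367), the skin call being lost without any library but skin replicate 4 (adjusted p up to 0.0881).

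**Figure D5:**
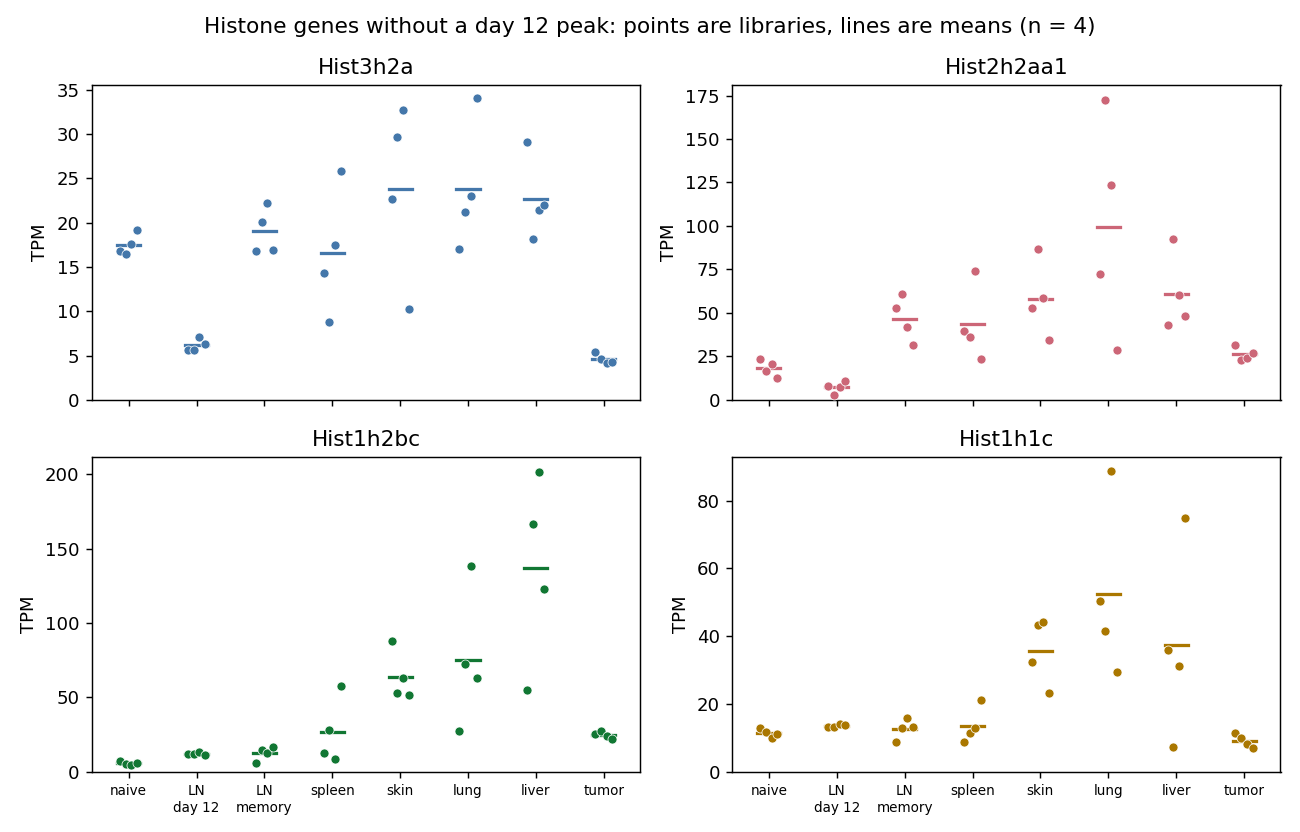
TPM per library of Hist3h2a, Hist2h2aa1, Hist1h2bc and Hist1h1c in the 8 groups (LN, lymph node), with lines at the means of 4 libraries and axes that start at 0. Hist3h2a and Hist2h2aa1 are lowest on day 12 or in tumor, and Hist1h2bc is higher in all skin, lung, liver and tumor libraries than in all day 12 libraries.

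The other members that were higher than on day 12 were few. In lung, Hist1h4n read 72.8, 127, 83.6 and 52.5 TPM against 6.60, 7.47, 8.68 and 11.0 on day 12, a rise of 3.12 ± 0.52 (adjusted p = 0.000157). It shares 85.6% of its sequence with other H4 copies, so its level is uncertain. Hist1h4c, Hist4h4 and Hist2h4, all H4 genes, rose there by 1.99, 1.47 and 1.37, and each lost its call without some library. For Hist1h4c these were all but lung replicate 4 (adjusted p up to 0.149), for Hist4h4 lung replicates 2 and 3 (up to 0.0908), and for Hist2h4 day 12 replicates 1 to 4 and lung replicates 2 and 3 (up to 0.189). Hist2h2aa2 rose by 2.74 ± 0.84 in skin (adjusted p = 0.0226) and 2.69 ± 0.84 in liver (0.0173). The skin call was lost without day 12 replicate 1 (0.0592) or 4 (0.053) or skin replicate 2 (0.0564), and both were lost with a pseudocount of 0.1 (0.158 and 0.105). The liver call was also lost with the 6 libraries poor in T cell genes left out (0.291), where liver replicate 1 stands alone. Under quantile normalization the lung split was 5 higher and 15 lower in place of 8 and 12.

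Skin and spleen cells, from a barrier tissue and from a lymphoid organ, differed in few histone genes. Of 65 members 3 were higher in skin and none lower, where 4.33% of all genes were higher and 3.34% lower (7.68% in all), so the share is near the background. They were Hist1h3e, with 6.09, 7.08, 5.64 and 5.31 TPM in skin and 0, 0.75, 1.85 and 2.41 in spleen (1.79 ± 0.48, adjusted p = 0.0183), Hist1h2bc (1.55 ± 0.47, adjusted p = 0.0358) and Hist1h1c (1.37 ± 0.43, adjusted p = 0.0486). No call of these held without each library in turn: Hist1h3e was lost without skin replicate 2 (0.0502) or spleen replicate 1 (0.086). Hist1h2bc was lost without skin replicates 1, 2 or 3 or spleen replicates 1 or 3 (up to 0.176), and Hist1h1c without skin or spleen replicates 1, 2 or 3 (up to 0.135). Neither DNA replication nor mitosis genes differed in this comparison: 0 of 29 and 0 of 17 passed the limma test.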

How the data were processed

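Bulk RNA sequencing of 32 libraries, 4 in each of 8 groups, was used. The deposited values are the natural log of TPM + 1, whose sums after back-transformation lie between 999999.06 and 1000000.8 per library. The authors used Bowtie and the build mm10, per the submitters' processing notes; versions, annotation, counting and RNA selection are not stated in any source at hand. Read counts were not used here, so depth is unknown and no counting interval is given. Values were converted to TPM, and log2(TPM + 1) was tested with limma 3.58.1 in R 4.3.3 (mean-variance trend, all 8 groups in 1 fit, 24 residual degrees of freedom, Benjamini-Hochberg adjustment, threshold 0.05). Genes needed at least 1 TPM in 4 libraries. The design had allowed for counts or normalized values, and the form for normalized values applied. A run on simulated data checked only the size of seeded changes, and no rate of false calls is given from it. Python 3.11.15 with pandas 2.3.3, NumPy 2.4.6 and Matplotlib 3.10.9 made summaries and figures.

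Members, lists and tests were chosen with earlier results of these data known. Named were the 3 members of each class with the highest mean level, up to 4 called members per direction with the largest change in each comparison, the member with the highest TPM, and up to 4 called genes per companion list, with Slbp, Npat, Mki67 and Pcna in any case. Others were named after their values were seen, because they changed with a library left out or completed a small count. Transcripts came from GENCODE for GRCm38, where 70 members matched by symbol, and promoters from RefSeq, where 62 matched. Alternatives were other filters, a pseudocount of 0.1, only the 2 groups compared, the replicate block, quantile normalization, leaving out libraries, and, chosen after seeing the data, weights per group. Comparisons share day 12 or naive libraries and are not independent.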

Additional observations from a re-analysis of the deposited data

Results flagged for a closer look

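In 15 of 168 groups of 4 libraries, 1 library stood farther from the other three than the 95% critical value of Dixon's test allows. For independent, normally spread values chance gives about 1 such group in 20. The items here overlap, since Hist1h2ap is part of the H2A and total sums, so the count was not tested against chance. Low values came from lung replicate 4, with 698 TPM over all members (others 2318 to 2441), 335 TPM of H2A (1543 to 1845) and 187 TPM of Hist1h2ap (1127 to 1581). Low values were also seen for H1 in liver replicate 1 (60 TPM, others 87.0 to 92.8) and Hist1h2ae in liver replicate 4 (27.7, others 150 to 206). Hist1h1e was low in lymph node memory replicate 4 (11.6, others 35.8 to 44.1), Hist1h4n in skin replicate 4 (10.8, others 27.3 to 32.1), and Hist1h2bj in naive replicate 2 (0, others 2.56 to 3.17). High values came from tumor replicate 1, with 184 TPM of H2B (121 to 127), 42.9 of Hist1h2bj (25.7 to 27.6) and 32.5 of Hist1h4c (22.2 to 23.5). Hist1h3i was high in tumor replicate 4 (13.5, others 9.38 to 9.98), and Hist1h4c in lymph node memory replicate 2 (19.0, others 12.9 to 13.7). Hist1h3a read 2.6 TPM in spleen replicate 4 and 3.75 TPM in liver replicate 3 and was listed at 0 in the other libraries of both groups. Any value above 0 would be flagged there.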

How the results depend on the processing

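Counts of called members moved with the estimate of spread. With only the 2 groups compared they were 50 for day 12 against naive, 40 for lymph node memory against day 12, 26 for tumor against day 12, 7 for lymph node memory against naive, 44 for tumor against naive and 0 for skin against spleen, in place of 24, 22, 10, 2, 29 and 3. Weights per group gave 51, 44, 25, 11, 46 and 1 for these, and 21 for liver against day 12 in place of 33. With a pseudocount of 0.1, lymph node memory against day 12 had 14, tumor against day 12 had 4 and skin against spleen had 0. Without a filter, tumor against day 12 had 6 and skin against spleen 1, and with at least 5 TPM in 4 libraries tumor against day 12 had 6. With the 6 libraries poor in T cell genes left out, liver against day 12 had 17, lymph node memory against naive 5 and skin against spleen 7. Liver is then 1 library, replicate 1, assumed to vary like the other groups: Npat went from -1.59 to 0.25 and Slbp from -1.09 to 0.1, values near 0 that end both calls (adjusted p = 0.0436 and 0.0375 with those libraries). The cause was not tested. Leaving out 1 library gave 5 to 9 calls for tumor against day 12 (9 without tumor replicate 1, and 5 or 6 without any other), 0 to 3 for lymph node memory against naive (0 without memory replicate 1) and 0 to 4 for skin against spleen (0 without spleen replicate 1 or skin replicate 2). The labels do not say whether a replicate number is shared across groups. Deviations of 112 same-numbered pairs of libraries, taken over all 8 groups, correlated between -0.393 and 0.517, with a median of 0.018 and 33 over 0.1. Pairs among lymph node memory and tissue groups were not read apart, so this median cannot decide whether a number is shared there. The main fit used no block. Replicate 4 had the lowest histone sum in lymph node memory, spleen, skin, lung and liver. The replicate block gave 25, 23, 26, 35, 20, 32, 10, 3, 30 and 2 calls in place of 24, 22, 24, 36, 20, 33, 10, 2, 29 and 3, in the order day 12 against naive, then lymph node memory, spleen, skin, lung, liver and tumor against day 12, lymph node memory and tumor against naive, and skin against spleen. Slbp in lymph node memory against day 12 passed the threshold under the block (adjusted p = 0.0399). Quantile normalization moved the median of all genes in lymph node memory against day 12 from 0.26 to 0.01 and in liver against day 12 from -0.29 to -0.05. Of the alternatives for named genes, 2654 kept direction and side of the threshold, 262 lost a call, 25 gained one and 2 changed sign.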
